A study of Mus musculus with 21 samples.

Results

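Malignant melanoma (MM) cells sorted from lung metastases were compared with MM cells sorted from primary tumors in a mouse transplantation model. The cells were those of 4 sorted MM libraries, replicates 4 and 5 of either site, in which the pigment genes *Pmel*, *Dct*, *Mlana* and *Tyrp1* together took 0.5% or more of the unique molecular identifiers (UMIs, 1 per captured RNA molecule). This rule kept 48257 cells of 48848 barcodes in the 4 libraries, and of 110283 barcodes in the whole series. All 4 libraries came from MT-ret melanoma fragments of in vivo passage 2, grown under the skin of male and female mT/mG mice that were 8 to 10 weeks old at transplantation. Primary tumors were resected at a fixed volume, and lung metastases were collected later. The host carried a ubiquitous membrane tdTomato reporter and no Cre, so host cells were tdTomato+ and the transplanted MM cells tdTomato-. No treatment is given for any group. Dissociated cells were frozen, thawed and sorted by flow cytometry before droplet-based 3′ single-cell RNA sequencing. The labels give lung as the tissue of both sites and name the site in the title and the disease field. A further library named as metastasis MM held the same 1036 barcodes and counts as a metastasis TME (tumor microenvironment) library and was left out.

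MT-ret tumors are driven by the receptor tyrosine kinase RET under a metallothionein promoter. Melanoma cells of this kind keep part of the melanocyte program, in which the transcription factors MITF and SOX10 maintain genes for melanin enzymes (*Tyr*, *Tyrp1*, *Dct*), for the melanosome matrix (*Pmel*, *Mlana*) and for melanosome transport. Melanoma cells are known to move between pigmented, proliferating states and less differentiated, neural crest-like states, and melanomas spread to the lung often.

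The libraries differed in size, and 1 of them also in its share of melanoma cells. Metastasis MM held 257 melanoma cells of 638 barcodes in replicate 4 (40.3%, exact 95% interval 36.5 to 44.2) and 11286 of 11310 in replicate 5 (99.8%). Primary tumor MM held 30328 of 30419 (99.7%) and 6386 of 6481 (98.5%). Just under the threshold, at 0.4% to 0.5%, lay 40 and 5 barcodes of metastasis MM and 43 and 50 of primary tumor MM. Just above it, at up to 0.6%, lay 12 and 6, and 80 and 67. The share of melanoma cells was low in 1 library, metastasis MM replicate 4, and the ranges of the sites overlapped (exact permutation test, two-sided p = 1.00). With 2 libraries against 2 the smallest p of this test is 0.333, so no single value could pass 0.05. In unchallenged lung, the same threshold was met by 0 of 4085, 0 of 6009 and 2 of 25966 barcodes. The counts of 0 allow shares of up to 0.0903% and 0.0614% by the exact 95% interval.

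**Figure D1:**
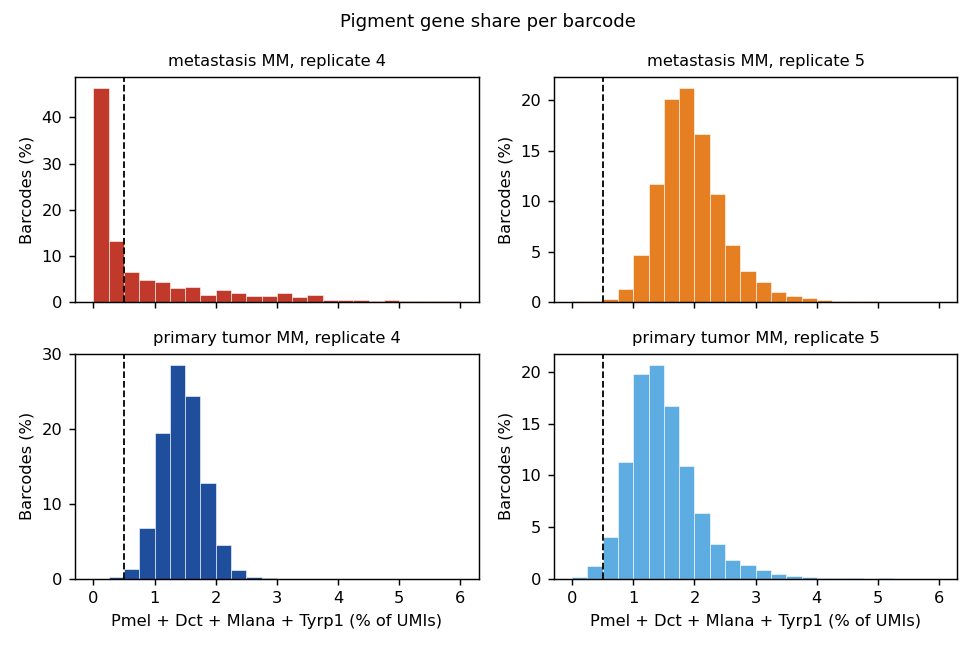
Share of UMIs from *Pmel*, *Dct*, *Mlana* and *Tyrp1* per barcode (x axis, %) against the share of barcodes (y axis, %) in each of the 4 libraries, with a dashed line at 0.5%. The other 3 libraries form 1 hump above the line, and metastasis MM replicate 4 has most barcodes below it.

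The melanoma cells summed to 1341694 UMIs in metastasis MM replicate 4, 60254892 in metastasis MM replicate 5, 57002028 in primary tumor MM replicate 4 and 31167485 in primary tumor MM replicate 5. Median UMIs per cell were 4591 and 4004 in metastasis against 1654 and 3664 in the primary tumor. The median mitochondrial share was 5.81% and 10.8% against 1.11% and 11.3%, so primary tumor MM replicate 4 stood apart with few UMIs and few mitochondrial reads per cell. The metadata place replicate 4 in a run numbered 2 (mice 14 and 13) and replicate 5 in run 3, where both libraries came from mouse 17, without saying what kind of run is meant. Between any 2 of the 4 libraries, 0 to 86 melanoma cells carried the same barcode sequence, with different counts.

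Melanocyte markers that the rule did not use were present in every library. *Cited1*, a melanocyte lineage co-regulator, lay between 589 and 980 CPM (the UMIs of a gene scaled to a common library total), *Syt4* between 1566 and 2396, and *Sox10* between 127 and 259. Barcodes below the threshold had less *Cited1*, *Syt4*, *Cd63*, *Cst6*, *Tyr*, *Mitf*, *Slc45a2* and *Gpnmb* CPM in every library, but more *Sox10* and *Cspg4* CPM. The share of them with a *Sox10* UMI was smaller in metastasis MM, at 22.8% and 29.2% against 34.2% and 60.3% of melanoma cells. In primary tumor MM it was larger, at 65.9% and 82.1% against 26.7% and 63.3%. Metastasis MM replicate 5 had only 24 such barcodes. Their *Sox10* was 132 and 260 CPM in metastasis MM replicates 4 and 5, and 243 and 346 CPM in primary tumor MM. Whether the rule leaves out melanoma cells of low pigment share was not tested. Defining genes of host cells were low but not all near 0. The pan-leukocyte gene *Ptprc* had 0.0830, 0.140 and 0.0642 CPM in metastasis MM replicate 5 and the 2 primary tumor libraries, and 23.1 CPM in metastasis MM replicate 4. The myeloid gene *Lyz2* had 38.0 CPM in metastasis MM replicate 4 and 1.06 to 3.61 in the other 3. The globin gene *Hbb-bs* had 20.1 CPM in metastasis MM replicate 4 and 25.2 in primary tumor MM replicate 4, against 0.0664 and 0.0963 in the replicate 5 libraries. The club cell gene *Scgb1a1* had 11.5 and 8.50 CPM in metastasis and primary tumor MM replicate 5, and 4.47 and 0.0351 in the replicate 4 libraries. *Pecam1*, *Cdh5*, *Col1a1*, *Dcn* and *Sftpc* stayed at or under 2.98 CPM, and the epidermal keratin gene *Krt5* was at 0 UMIs in all 4. The 124 measured genes of the 12 host lists took 0.0558% and 0.0283% of UMIs in metastasis against 0.0361% and 0.0377% in the primary tumor. Of the 381 barcodes under the threshold in metastasis MM replicate 4, 45.9% held a *Ptprc* UMI and 93.4% a *Dct* UMI. The part of these host RNAs in the differences below was not tested, except where a value without them is given.

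Across all genes, 1 gene passed the test between the sites. *Ank3*, which encodes ankyrin-G, an adaptor that ties membrane proteins to the spectrin skeleton, had 2.98 and 1.89 CPM in metastasis against 14.6 and 19.8 CPM in the primary tumor. It was lower in both metastasis libraries (log2 fold change -3.11, SE 0.44, edgeR quasi-likelihood adjusted p = 0.0458, n = 2 libraries per site). In metastasis MM replicate 4 its 2.98 CPM were only 4 UMIs. *Ank3* lies on chromosome 10 (69398773 to 70027438, plus strand, GRCm38, ENSMUSG00000069601). It was named after its values were seen, because it lies under the 30 CPM set for the genes named below. The call was lost without metastasis MM replicate 5 (edgeR adjusted p = 0.0621), with a filter of 100 UMIs in 2 libraries (0.0503) and with all barcodes kept (0.982). It was also lost with 257 cells per library (0.308) and with 1 more library per site (0.316), both without the block, and with the block for all barcodes (0.294) and 257 cells per library (0.0916). Over 22 alternatives the adjusted p ran from 1.43e-08 to 0.982, and the other 15 called it. Host cells of the metastasis TME libraries had 37.8 CPM of *Ank3*.

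That 1 gene is 0.00696% of 14363 genes tested. An unadjusted p under 0.05 was reached by 537 genes (3.74% of those tested), 238 higher (1.66%) and 299 lower (2.08%) in metastasis. DESeq2 called 32 genes, 12 higher and 20 lower. When the replicate number entered the fit as a block, 101 genes passed (0.703%), 41 higher (0.285%) and 60 lower (0.418%) in metastasis, while 708 genes (4.93%) had an unadjusted p under 0.05. That fit has 4 libraries and 3 coefficients. Its p-values rest mostly on a spread shared across genes, and not on the agreement of a gene's own libraries. *Hspa1b*, for example, passed with the block (edgeR adjusted p = 0.000494) although its log2 ratio inside replicate 5 was -0.02. Adjusted p-values of both fits are given for most genes below, because the block decides most calls.

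The genes named here were the 14 per direction with the smallest p among those with a mean of at least 30 CPM at the higher site, no overlap between the sites, no place on a host list and at least the level of the host cells of that site. None of these 28 passed without the block. With it, 12 of the 14 higher and 13 of the 14 lower genes passed. None of the 28 passed with the block when all barcodes were kept, and 8 did with 257 cells per library. Because smallness of p chose these genes, the counts describe the choice. *Mlana*, among the 14 higher genes, was also used by the rule that chose the cells.

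Genes with higher values in metastasis included secreted factors, a growth factor receptor and vesicle genes. *Pgf*, placental growth factor, a ligand of VEGF receptor 1, had 54.4 and 56.7 CPM in metastasis against 12.0 and 13.5 in the primary tumor (log2 fold change 2.04, SE 0.34, edgeR adjusted p = 0.0720 and with the block 4.53e-05). *Enpp2*, which encodes autotaxin, the enzyme that makes lysophosphatidic acid, had 271 and 150 CPM against 39.7 and 32.8 (log2 fold change 2.41, SE 0.42, edgeR adjusted p = 0.0720 and with the block 2.74e-05). In both genes the lowest metastasis library lay more than 3 times above the highest primary tumor library.

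*Met*, the receptor of hepatocyte growth factor, had 75.3 and 110 CPM against 21.8 and 43.3 (log2 fold change 1.48, SE 0.38, edgeR adjusted p = 0.324 and with the block 0.0287). *Cort*, the neuropeptide cortistatin, had 62.6 and 58.5 CPM against 21.4 and 10.7 (edgeR adjusted p = 0.268 and with the block 0.000305). *Runx2*, a transcription factor of bone that melanomas can express, had 62.6 and 23.1 CPM against 9.33 and 13.1 (edgeR adjusted p = 0.293 and with the block 0.00297). The groups did not overlap for any of these genes, as the naming rule required. Without metastasis MM replicate 4 the log2 fold change of *Runx2* was 0.98 instead of 1.79.

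Of the rest, *Trpm1*, a melanocyte cation channel, and *Mlana* are described with the pigment genes. *Sytl2*, a RAB27 effector in granule docking, had 44.7 and 33.7 CPM against 14.9 and 13.3. *Bhlhe41*, a transcriptional repressor of the circadian clock, had 117 and 64.0 CPM against 30.3 and 26.8. *Tbc1d16*, a RAB GTPase-activating protein, had 46.2 and 42.2 CPM against 13.5 and 20.0. These 3 passed with the block (edgeR adjusted p = 0.0305, 0.0188 and 0.0471, and without it 0.411, 0.324 and 0.332). *Ttr* (the thyroid hormone carrier transthyretin), *Nptxr* (the neuronal pentraxin receptor) and *Dmxl2* also passed with the block. The log2 fold change of *Ttr* was 2.42, and 1.01 without metastasis MM replicate 4.

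*2810403D21Rik* met the same rule through 1 library. It had 291 CPM in metastasis MM replicate 4 and 5.99, 5.82 and 5.45 CPM in the other 3 libraries. Without metastasis MM replicate 4 its log2 fold change was -0.013, against 4.56 with it.

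**Figure D2:**
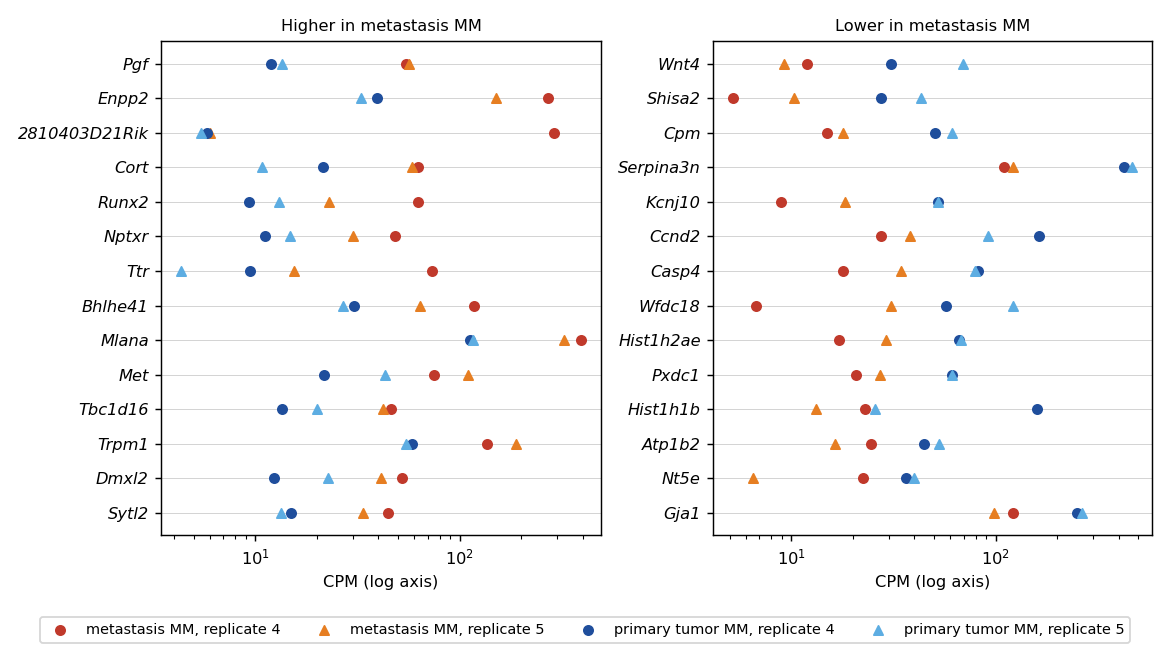
CPM (x axis, log scale) of the 14 named genes per direction in each of the 4 libraries, red and orange for metastasis, blue for the primary tumor. The colors separate in every row, as the naming rule required, by little in *2810403D21Rik*, where only metastasis MM replicate 4 lies apart.

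Genes with lower values in metastasis included a WNT ligand, an acute phase gene and a D-type cyclin. *Serpina3n*, a serine protease inhibitor of the acute phase response, had 110 and 122 CPM in metastasis against 424 and 467 in the primary tumor (log2 fold change -2.03, SE 0.41, edgeR adjusted p = 0.111 and with the block 0.00686). *Wnt4* had 11.9 and 9.19 CPM against 30.7 and 69.3 (log2 fold change -2.34, SE 0.41, edgeR adjusted p = 0.0720 and with the block 1.43e-05). *Ccnd2*, cyclin D2, which drives entry into the cell cycle, had 27.6 and 38.2 CPM against 163 and 92.1 (log2 fold change -2.06, SE 0.43, edgeR adjusted p = 0.140 and with the block 0.00192). Without primary tumor MM replicate 4 the log2 fold change of *Ccnd2* was -1.38. *Ccnd1*, cyclin D1, showed no such gap, with 1092 and 478 CPM against 462 and 501.

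Membrane proteins formed part of the same set. *Kcnj10*, an inward rectifier potassium channel of glia, had 8.94 and 18.4 CPM against 52.6 and 52.6. *Gja1*, the gap junction protein connexin 43, had 122 and 98.8 CPM against 251 and 265, and did not pass with the block either (edgeR adjusted p = 0.261). *Nt5e*, the ectonucleotidase CD73, had 22.4 and 6.51 CPM against 36.7 and 39.9. *Cpm*, carboxypeptidase M, had 14.9 and 17.9 CPM against 50.5 and 61.2. Without metastasis MM replicate 5 the log2 fold change of *Nt5e* was -0.86 instead of -1.74. *Kcnj10*, *Nt5e* and *Cpm* passed with the block (edgeR adjusted p = 0.000375, 0.00114 and 0.00121, and without it 0.117, 0.497 and 0.0979).

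*Casp4*, the inflammatory caspase that senses lipopolysaccharide, had 17.9 and 34.6 CPM against 82.0 and 79.6 (edgeR adjusted p = 0.268 and with the block 0.00686). The linker histone gene *Hist1h1b* had 23.1 and 13.2 CPM against 160 and 25.8, and *Hist1h2ae* 17.1 and 29.1 against 66.4 and 67.9. The fold of *Hist1h1b* rested on primary tumor MM replicate 4, without which its log2 fold change was -0.51 instead of -2.66. *Shisa2*, *Wfdc18*, *Pxdc1* and *Atp1b2* made up the 14.

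A further 3 genes lie outside the named set. *Nr4a1* was set by fold change from the immediate early list. *Socs3* and *Bcl3* were picked after their values were seen, and they stand for no list. *Socs3*, a feedback inhibitor of JAK-STAT signaling, had 5.22 and 5.71 CPM against 19.6 and 21.0. *Bcl3*, an IkB family protein, had 2.24 (only 3 UMIs) and 4.36 CPM against 14.1 and 20.3. *Nr4a1*, an immediate early nuclear receptor, had 5.96 and 10.2 CPM against 46.1 and 27.3. All 3 passed with the block (edgeR adjusted p = 0.00100, 6.96e-05 and 0.000258) and none without it (0.108, 0.0858 and 0.111). Host cells of primary tumor TME had more of each than the primary tumor MM cells, with 170.5 CPM of *Socs3*, 36.1 of *Bcl3* and 54.9 of *Nr4a1*, and the part of host RNA was not tested. Of the 19 tested immediate early genes, 2 were higher (10.5%) and 5 lower (26.3%) without overlap, beside 14.1% and 13.1% of all genes tested. Their median log2 fold change was -0.08, and the median ratios inside replicates 4 and 5 were 0.26 and -0.36. With all barcodes kept it was 2.08, a change of direction, and without metastasis MM replicate 4 it was -0.53. *Atf3*, of the same list, had 72.3 and 18.3 CPM against 21.9 and 14.4.

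The difference between sites was also taken inside each replicate number, as the log2 ratio of CPM plus 1. These ratios lack the library scaling of the fit, so fitted log2 fold changes can lie outside the range of both. At 2-fold or more, 39 genes were higher in metastasis in both numbers, 73 were lower in both, and 24 moved in opposite directions. A correlation of the 2 sets of differences used log2 CPM scaled as in the fit, with a smaller offset than 1 CPM. Pearson r was 0.123 over 14363 genes and 0.0625 over the 4453 genes with a mean of at least 30 CPM. This is a correlation across genes, which are not independent replicates. For *Serpina3n* the log2 ratios of CPM plus 1 were -1.93 and -1.93, for *Pgf* 2.10 and 1.99, and for *Runx2* 2.62 and 0.78.

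**Figure D3:**
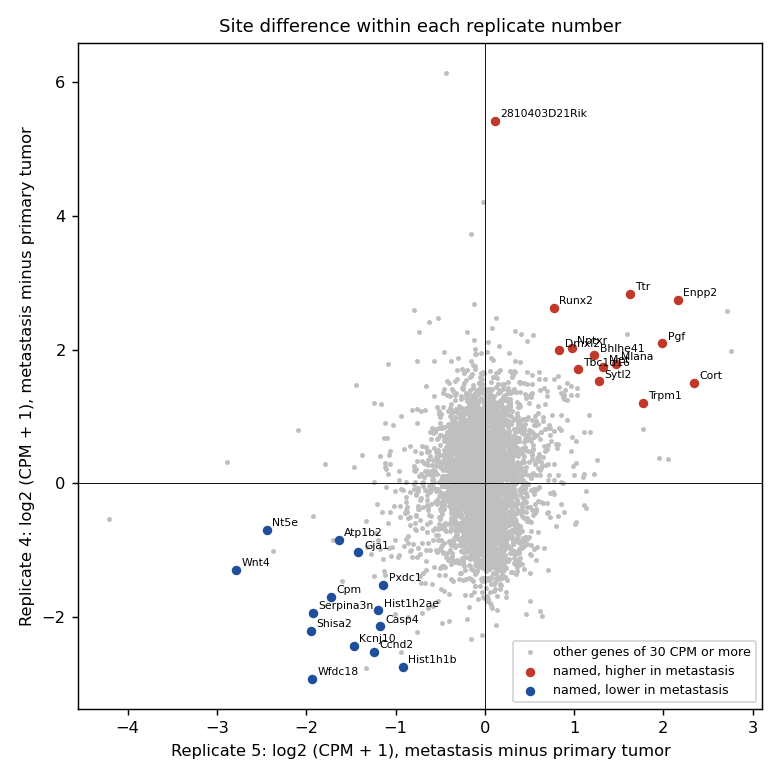
Log2 ratio of CPM plus 1, metastasis over primary tumor, in replicate 5 (x axis) and replicate 4 (y axis), 1 point per gene of at least 30 CPM at the higher site. The named genes lie in the upper right and lower left, as their choice without overlap required. The other genes spread more along the replicate 4 axis and show little common slope.

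Among the cells kept by the rule, most pigment genes had higher values in metastasis, while single members missed the adjusted threshold. Of 20 listed enzymes, transporters and melanosome proteins 19 were tested, 4 of which the rule used to choose the cells. Of the other 15, 11 had both metastasis libraries above both primary tumor libraries (73.3%), against 14.1% of all genes tested. None had both below, and none passed the test without the block. They had a median log2 fold change of 0.80, beside -0.04 over all genes tested. The median ratio of these 15 was 0.82 in replicate 4 and 0.75 in replicate 5. Choosing cells by pigment share can raise these 15 as well, most where it removed most barcodes. That part was not tested, and their overlap was not counted with all barcodes kept.

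*Gpnmb*, a melanosome glycoprotein, had 2735 and 2441 CPM in metastasis against 1620 and 1674 in the primary tumor. *Trpm1* had 136 and 188 CPM against 58.6 and 54.4 (log2 fold change 1.43, SE 0.38, edgeR adjusted p = 0.373 and with the block 0.0919). *Mlph*, melanophilin, which links melanosomes to myosin Va, had 185 and 150 CPM against 67.5 and 84.2, and *Myo5a* itself 437 and 216 against 137 and 171. The smallest p was that of *Slc24a4*, a potassium-dependent sodium-calcium exchanger, at 17.1 and 10.7 CPM against 1.74 and 1.64 (log2 fold change 2.87, SE 0.47, edgeR adjusted p = 0.0720 and with the block 1.16e-06). It was the only pigment list gene to pass with the block.

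*Tyr*, tyrosinase, overlapped between the sites, with 733 and 336 CPM against 361 and 185, and so did *Cd63*, with 2829 and 3840 against 3861 and 3068. *Rab38* and *Mreg* overlapped as well. The 4 genes of the rule are given as a description. *Mlana* had 391 and 322 CPM against 112 and 116, *Tyrp1* 1625 and 1267 against 662 and 691, *Pmel* 737 and 1361 against 456 and 692, and *Dct* 18102 and 17148 against 13251 and 14222. The rule removed 24 barcodes from metastasis MM replicate 5 but 381 from metastasis MM replicate 4. *Gpnmb* had 434 CPM in those 381 barcodes. With all barcodes kept, the median of the 15 other pigment genes was 0.32. Without primary tumor MM replicate 5 it was 0.49, without metastasis MM replicate 4 it was 0.55, and with a threshold of 1% it was 0.97.

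**Figure D4:**
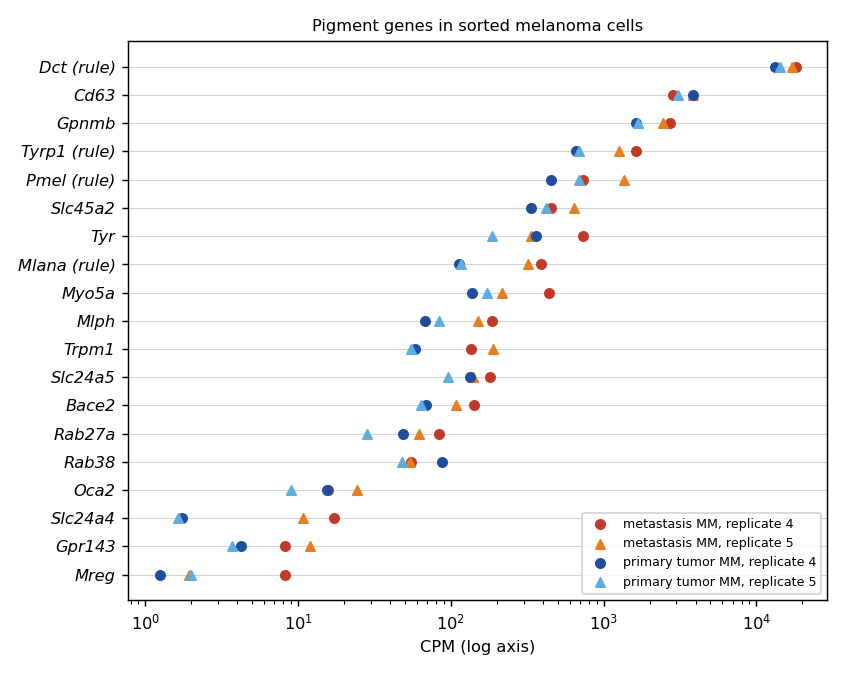
CPM (x axis, log scale) of the 19 tested pigment genes in each library, ordered by their mean in metastasis, with the 4 genes of the rule marked. Red and orange points lie to the right of the blue ones in 15 rows, and the 4 exceptions are *Tyr*, *Cd63*, *Rab38* and *Mreg*.

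The promoters of pigment genes are known for the M-box, whose core TCATGTG is bound by MITF. RefSeq start sites of GRCm38.p6 gave 250-base windows for 14 of the 20 listed pigment genes. The core was found on either strand for 5 genes, in 29.4% of 17 windows, against 1.88% of 13639 windows of tested genes and 3.25% of all 32851 windows. The matches are shown with up to 20 bases to each side, read on the strand that gives TCATGTG (capitals), since the core was more frequent in this list than in all windows.
*Trpm1* (chr7:64153673-64153719, gene on the plus strand, core 142 bases before the start): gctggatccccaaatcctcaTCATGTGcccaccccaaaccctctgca
*Tyrp1* (chr4:80834146-80834192, gene on the plus strand, 47 bases before): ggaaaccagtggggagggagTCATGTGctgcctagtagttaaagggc
*Tyr* (chr7:87493513-87493554, gene on the minus strand, 22 bases before): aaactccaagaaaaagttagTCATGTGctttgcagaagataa
*Slc24a5* (chr2:125068094-125068126, gene on the plus strand, read on the opposite strand, 13 bases before): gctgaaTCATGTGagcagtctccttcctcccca
*Dct* (chr14:118052371-118052417, gene on the minus strand, 151 bases before, with a second match farther away): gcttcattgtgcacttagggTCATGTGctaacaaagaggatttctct
The related form TCACGTG was found for *Mlph* alone, in 5.88% of the 17 windows against 4.81% of windows of tested genes. Both forms contain the E-box CANNTG. A match is a string of letters and not a measured site. For *Dct* the first bases after the RefSeq start were in no transcript of the reference annotation. Among the 14 named genes higher in metastasis, 8 had a window, and TCATGTG was found for *Runx2* and *Trpm1*.

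The regulators and receptors of the melanocyte lineage had a median near that of all genes. Of 18 genes of this list 6 were higher (33.3%) and 1 lower (5.56%) without overlap, beside 14.1% and 13.1% of all genes tested, with a median log2 fold change of -0.03. *Mitf* had 331 and 437 CPM in metastasis against 408 and 296 in the primary tumor, *Sox10* 127 and 212 against 179 and 259, and *Pax3* 150 and 231 against 157 and 214. All 3 overlapped. *Ptgds*, prostaglandin D synthase of melanocytes, had 2386 and 2550 CPM against 1353 and 746, and *Mc1r*, the receptor of melanocyte-stimulating hormone, 180 and 157 against 91.3 and 114. Neither passed in either fit. The mouse gene *Ret* did not pass, with 32.8 and 19.4 CPM against 16.5 and 18.1 (log2 fold change 0.44, SE 0.37, edgeR adjusted p = 1.00). How far reads of the RET transgene are counted as *Ret* was not tested, so these values need not measure the driver. *Mt1*, whose promoter family drives the transgene, had 1495 and 1060 CPM against 1914 and 1940.

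Among 17 tested genes of neural crest-like and dedifferentiated melanoma cells, 2 were higher (11.8%) and 4 lower (23.5%) without overlap, beside 14.1% and 13.1% of all genes tested. *Aqp1*, a water channel of the neural crest, had 8.20 and 8.36 CPM against 17.5 and 47.4 and passed with the block (edgeR adjusted p = 0.000326, and 0.175 without it). Host cells had more of it, 449 CPM in metastasis TME and 195 in primary tumor TME. The list median was 0.25 in replicate 4 and -0.61 in replicate 5, so its direction differed between the replicate numbers.

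Cell cycle genes had lower values in metastasis. Of 42 S phase genes 23 were lower without overlap and 0 higher, and of 52 G2/M genes 31 were lower and 1 higher, against 13.1% lower over all genes tested. The median log2 fold change was -0.57 for S phase and -0.58 for G2/M. The ratios inside the replicate numbers, which lack the library scaling of the fit, were -0.23 and -0.54 for S phase and -0.50 and -0.41 for G2/M. No gene of either list passed with or without the block. At an unadjusted p under 0.05, 7 S phase and 10 G2/M genes were lower, and 0 and 1 were higher, beside 2.08% lower and 1.66% higher over all genes tested.

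*Hmgb2*, a chromatin protein of proliferating cells, had 106 and 81.6 CPM in metastasis against 229 and 162 in the primary tumor (log2 fold change -1.19, SE 0.40, edgeR adjusted p = 0.874). *Top2a*, topoisomerase II alpha, had 52.9 and 44.4 CPM against 84.3 and 63.1, and *Mki67*, the gene of the Ki-67 antigen, 88.7 and 63.2 against 105 and 91.8. *Nasp*, a histone chaperone of S phase, had 47.0 and 57.2 CPM against 91.3 and 80.7. The medians rested in part on primary tumor MM replicate 4, the library with the fewest UMIs per cell. Without it they were -0.39 for S phase and -0.33 for G2/M. With each cell thinned to 2000 UMIs, which left 188, 10973, 4167 and 5794 cells, they were -0.52 and -0.41.

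Interferon-stimulated genes and MHC class I genes also had lower values in metastasis. Of 40 interferon-stimulated genes tested 17 were lower without overlap (42.5%) and 0 higher. Of 19 MHC class I genes 9 were lower (47.4%) and 1 higher, beside 13.1% lower and 14.1% higher over all genes tested. Their median log2 fold changes were -0.62 and -0.50. *Ifitm3*, a restriction factor of virus entry, had 510 and 797 CPM in metastasis against 1050 and 1072 in the primary tumor (log2 fold change -0.79, SE 0.45, edgeR adjusted p = 1.00). The immunoproteasome subunit genes *Psmb8* and *Psmb9* had 5.96 and 4.71 against 18.1 and 9.95 CPM, and 1.49 and 2.61 against 11.3 and 5.90 CPM. The 1.49 CPM of *Psmb9* in metastasis MM replicate 4 were only 2 UMIs. *H2-K1* had 282 and 260 CPM against 301 and 317, and *B2m* overlapped. No gene of these lists passed in either fit. Without primary tumor MM replicate 4 the medians were -0.26 and -0.15, and without metastasis MM replicate 5 that of MHC class I was -0.28. Without primary tumor MM replicate 5 that of interferon-stimulated genes was -0.97, and with all barcodes kept they were 0.09 and 0.11, a change of direction.

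**Figure D5:**
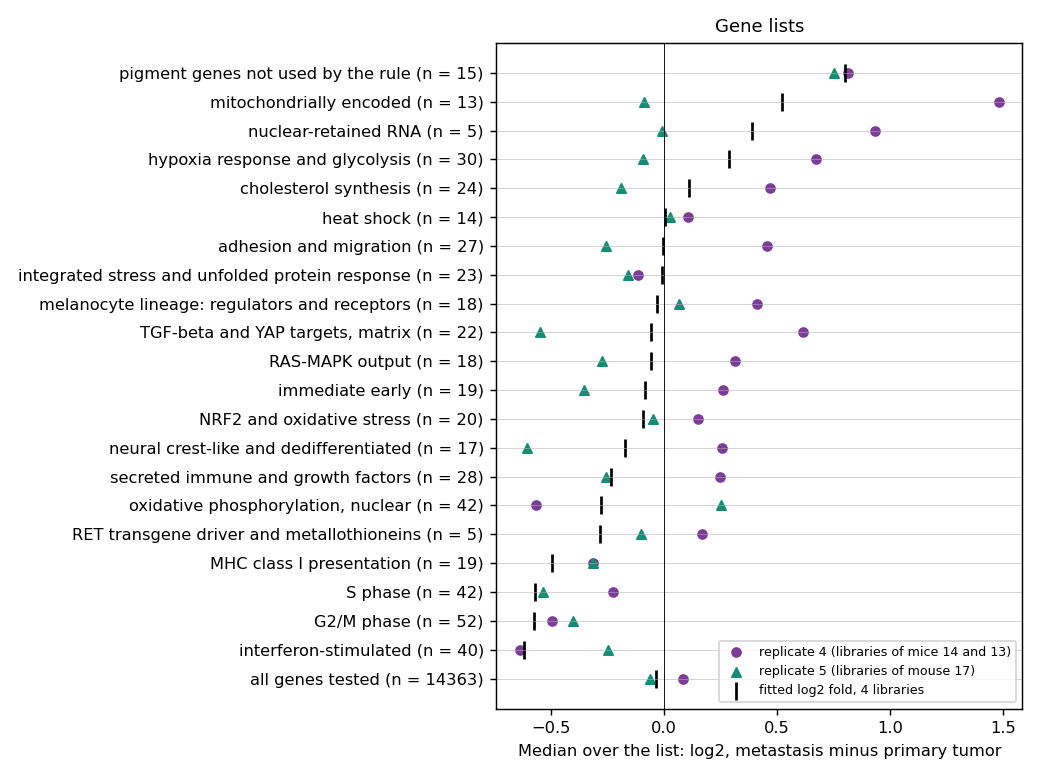
Median over each gene list of the log2 difference, metastasis minus primary tumor (x axis), in replicate 4 (circles), in replicate 5 (triangles) and in the fit of 4 libraries (bars), with the number of genes tested. Pigment genes lie right of 0 and S phase, G2/M, interferon and MHC class I genes left of 0 on all 3 marks, while most other lists change side between the replicate numbers.

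No gene of the remaining lists passed without the block. With it, and besides genes named elsewhere here, *Slc7a5*, an amino acid transporter of the integrated stress response, passed at 13.4 and 12.0 CPM in metastasis against 2.75 and 4.88 in the primary tumor (edgeR adjusted p = 0.0217, and 0.318 without it). Nuclear oxidative phosphorylation genes had a median ratio of -0.57 in replicate 4 and 0.25 in replicate 5, and mitochondrially encoded genes 1.48 and -0.09. The low mitochondrial share of primary tumor MM replicate 4 moved with the second of these. Hypoxia and glycolysis genes had 0.67 and -0.09, and adhesion and migration genes 0.46 and -0.26. *Timp1*, an inhibitor of matrix metalloproteinases, had 82.0 and 96.9 CPM against 177 and 165, and *Pdgfa*, platelet-derived growth factor A, 68.6 and 57.8 against 98.1 and 105. Both were without overlap, and neither passed in either fit. Of the adhesion and migration genes, 14.8% were higher and 18.5% lower without overlap, and of the secreted immune and growth factors 14.3% and 21.4%. Over all genes tested the shares were 14.1% and 13.1%.

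Some values came from metastasis MM replicate 4 alone. The inducible heat shock genes *Hspa1a* and *Hspa1b* had 120 and 83.5 CPM there, and between 3.60 and 9.75 CPM in the other 3 libraries. The neutrophil gene *S100a9* had 37.3 CPM there and at most 1.00 elsewhere, and the macrophage gene *Chil3* 29.1 and at most 0.481. All 4 passed with the block, while their log2 ratios of CPM plus 1 inside replicate 5 were -0.15 for *Hspa1a*, -0.02 for *Hspa1b*, -0.06 for *S100a9* and 0.00 for *Chil3*. Summed macrophage and monocyte markers took 121 CPM in this library and 5.74 to 16.4 CPM in the other 3, and lymphocyte markers 78.3 and 4.85 to 7.79 CPM. More host cells and more host RNA per cell cannot be told apart in such sums. Of the host lists, 2 genes passed with the block at lower values in metastasis. *Plvap*, of fenestrated endothelium, had 7.45 and 7.04 CPM against 20.0 and 21.9, and *Mgp*, a matrix protein of fibroblasts, 8.20 and 2.02 against 10.9 and 22.3 (edgeR adjusted p = 0.0117 and 8.48e-05, and without the block 0.259 and 0.318). MHC class II genes, which leukocytes express, had a median log2 fold change of 2.05 over 6 genes, which became -1.98 without this library.

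Barcodes at the melanoma threshold were also found among the sorted TME cells, and the named genes were looked up there. How far these barcodes are melanoma cells, doublets or free RNA was not tested. In primary tumor TME replicate 6, 1204 of 1309 of them had 0.5% or more of UMIs from host lists. Of the TME libraries, 4 held at least 50 cells at the threshold. After cells with 0.5% or more of UMIs from host lists were left out, 1973 and 110 cells remained in metastasis TME replicates 5 and 6, and 143 and 105 in primary tumor TME replicates 4 and 6. *Mlana*, a gene of the rule, was left out of the counts. Of the other 13 genes higher in metastasis MM, 3 had both metastasis TME libraries above both primary tumor TME libraries, beside 9.84% of 4786 genes of at least 30 CPM. These were *Pgf*, *Enpp2* and *Trpm1*, and the other 10 overlapped. Of the 14 lower genes, 10 had both metastasis TME libraries below, beside 12% of the 4786, and 4 overlapped. Of these 10, *Kcnj10*, *Ccnd2* and *Wfdc18* had 0 UMIs and *Cpm* 2.44 CPM in metastasis TME replicate 6. Its 110 cells summed to 819547 UMIs, so such values, also that of *Ank3* below, rest on few UMIs. Without the limit on host RNA the counts were again 3 and 10, with *Met* in place of *Trpm1*, beside 12.1% higher and 11.4% lower of the 4786. *Enpp2* had 197 and 775 CPM in metastasis TME against 88.9 and 23.2 in primary tumor TME, and *Ank3* 1.92 and 2.44 against 30.0 and 11.6. *Serpina3n* overlapped, with 177 and 240 CPM against 721 and 158. These TME libraries were not tested against each other, since the sort differs and free RNA of host cells can enter these droplets. Those of replicate 6 entered 2 alternative fits beside the MM libraries, with and without the block. Metastasis TME replicate 5 (mouse 17) and primary tumor TME replicate 4 (mouse 13) share their mice with sorted libraries. The cells of 3 of these 4 libraries were deposited under more than 1 library name with different mouse numbers.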

How the data were processed

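The deposited counts are UMIs per gene and cell, which the authors made with Cell Ranger 6.1.1 on GRCm38 and filtered with Seurat 3.2.2. The deposited percent columns (mitochondrial and ribosomal reads per cell) were used as values only. A deposited log-normalized matrix was not used. Of the library names in the metadata, 11 were not used. The names of 3 MM libraries carry other replicate numbers in the metadata than in the labels and were matched through the mouse and run of the TME libraries.

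Counts of melanoma cells were summed per library and fitted with edgeR 4.0.16 (filterByExpr, TMM, quasi-likelihood test on site, Benjamini-Hochberg over all genes, adjusted p under 0.05). SE is the log2 fold change over the root of F. The fit was tested on simulated counts. CPM are of the library's melanoma cell total. Since the replicate number marks a run of unstated kind in the metadata, and for replicate 5 also a mouse, it was a block in a second fit. Deviations of same-numbered libraries had r = 0.271 across all genes tested and 0.0722 across the 4453 genes with a mean of at least 30 CPM. DESeq2 1.42.0 was an alternative. Named genes followed the rule given with them. Of 35 lists, 23 gave up to 4 genes each by fold change, and the 12 host lists gave their highest genes by CPM. Further list members in the text, among them *Top2a*, *Mki67*, *Psmb8* and *Psmb9*, were picked outside these rules. The members and lists were chosen with earlier results of these data known. No doublet caller was run. Replicates are libraries, and p-values without the block measure the spread between them together with a spread shared across genes. With the block, p-values rest mostly on the shared spread. Intervals cover counting error only.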

Additional observations from a re-analysis of the deposited data

Results flagged for a closer look

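Barcodes at the melanoma threshold occurred in sorted TME cells, which the comparison of MM libraries did not use, above the level of unchallenged lung (at most 0.00770% of barcodes). Their share was 1.97%, 78.0% and 20.9% in metastasis TME replicates 4, 5 and 6, and 5.70%, 11.9% and 54.9% in primary tumor TME replicates 4, 5 and 6. How far these are melanoma cells in the tdTomato+ sort, doublets or free RNA was not tested.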

How the results depend on the processing

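Without the block the test called 1 gene (0 higher, 1 lower). RLE scaling gave 12 (6, 6), no filter on low counts 112 (55, 57), a filter of 100 UMIs in 2 libraries 0 (0, 0; 433 with an unadjusted p under 0.05), DESeq2 32 (12, 20), the 1% threshold 20 (9, 11), all barcodes 0 (0, 0; 480 unadjusted), no cells of host marker share 0.5% or more 7 (4, 3), and thinning to 2000 UMIs 30 (15, 15). Leaving out 1 library gave 9 to 84 calls, 2 to 64 higher and 7 to 44 lower: 9 without metastasis MM replicate 4, 83 without replicate 5, 61 without primary tumor MM replicate 4 and 84 without replicate 5. The lone library of a site is then assumed to vary like the other pair. Chosen after seeing the data, 257 cells per library gave 2 (2, 0), and 1 more library per site, from the melanoma cells of TME replicate 6, gave 0 (0, 0; 515 unadjusted). The metastasis library added there holds the same barcodes and counts as the library named metastasis MM that was left out, so its sort and mouse are uncertain, and the primary tumor library added was deposited under 2 names.

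The replicate block called 101 genes (41, 60). Together with the block, and also chosen after seeing the data, the 1% threshold gave 106 (45, 61), all barcodes 16 (15, 1), no host-marker cells 103 (43, 60), thinning 93 (33, 60), 257 cells per library 12 (6, 6), DESeq2 47 (23, 24), and 1 more library per site 139 (47, 92). Of the 101 genes, 86, 3, 100, 71, 12, 46 and 78 were called again under these 7 settings, in this order.

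The choice of the 28 named genes required no overlap between the sites in these same libraries, so their direction was largely set by it. They kept this direction in 615 of 616 values under all alternatives. The exception was *2810403D21Rik*, -0.013 without metastasis MM replicate 4 and up to 5.59 without another library. *Hbb-bs*, a globin gene, ran from -7.77 to 6.46 when 1 library was left out, the latter without primary tumor MM replicate 4. Of 526 list medians under alternatives, 107 moved by more than the SD between the replicate numbers. The cause of these changes was not tested. The smallest library holds 257 cells, which limits every gene of few CPM.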
